A study of Mus musculus with 2 samples.

Results

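Toll-like receptors are leucine-rich-repeat receptors with which macrophages detect microbial products, and the genes described here are 10 parts of that system: the receptor genes Tlr1, Tlr2, Tlr4, Tlr6, Tlr8 and Tlr13, the co-receptor genes Cd14 and Ly96, and the adaptor genes Myd88 and Ticam2. They were taken by symbol from a deposited table of 16463 genes, and all 10 were found, each in 1 row. The comparison asks how the transcript levels of these genes in resting macrophages differ between mice labelled as lacking microRNA clusters of the miR-17 group and control mice.

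The TKO library came from mice labelled mir-106a~363-/-, mir-106b~25-/- and mir-17~92flox/flox with Lyz2-Cre. The WT library came from mice labelled WT that carry Lyz2-Cre as well. Lyz2-Cre places the Cre recombinase under the control of lysozyme M, a myeloid gene, so the floxed cluster is removed where Cre is active, whereas the other clusters are labelled as absent from the whole animal. Both lines were labelled C57BL/6J, and neither the ages of the mice nor the number of mice behind a library were in the labels. Marrow cells were grown for 5 days in medium with 10% serum and 10% conditioned medium of the L929 fibroblast line, its source of macrophage colony-stimulating factor, and the resulting bone marrow-derived macrophages were lysed without stimulation. Polyadenylated RNA was sequenced to 10656455 estimated counts in TKO and 10877915 in WT. Each genotype had 1 library, so none of the differences described could be checked in replicates, and every interval is a 95% interval for counting error alone.

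In the plasma membrane TLR2 pairs with TLR1 or TLR6 to bind bacterial lipopeptides, and TLR4 binds lipopolysaccharide (LPS) through MD-2, the product of Ly96, after CD14 has handed the LPS over. MYD88 carries the signal of all the receptors listed here, while TRAM, the product of Ticam2, links internalised TLR4 to TRIF and so to interferon genes. TLR8 and TLR13 are endosomal receptors for RNA, TLR8 as known mainly from human cells and TLR13 from the mouse, so 4 of the 6 receptors are surface receptors and the other two are not.

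The microRNAs of the deleted clusters are shown because their seeds, bases 2 to 8 and in capitals, define the sites searched for in these genes. For the miR-17 and miR-25/92 families members from different clusters are given, and for miR-18 and miR-19 a single member each. All are written 5′ to 3′, as listed by RefSeq on GRCm38.p6. Precursors of miR-17, miR-18a, miR-19b and miR-92a lie in mir-17~92 on chromosome 14, for example mmu-miR-17-5p at chr14:115043684-115043706 (plus strand). Those of miR-106b and miR-25 lie in mir-106b~25 on chromosome 5, with mmu-miR-106b-5p at chr5:138165787-138165807 (minus strand). That of miR-106a lies in mir-106a~363 on chromosome X at chrX:52742541-52742563 (minus strand). Further precursors of miR-19b and miR-92a lie in mir-106a~363, with mmu-miR-19b-3p at chrX:52741991-52742013 and mmu-miR-92a-3p at chrX:52741854-52741874 (minus strand).
mmu-miR-17-5p: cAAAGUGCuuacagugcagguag
mmu-miR-106b-5p: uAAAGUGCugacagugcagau
mmu-miR-106a-5p: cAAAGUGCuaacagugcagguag
mmu-miR-18a-5p: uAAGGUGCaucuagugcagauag
mmu-miR-19b-3p: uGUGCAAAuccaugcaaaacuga
mmu-miR-92a-3p: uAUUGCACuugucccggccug
mmu-miR-25-3p: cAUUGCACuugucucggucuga

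None of the 10 genes holds a match to these seeds in its longest 3′ UTR annotated by GENCODE M21. The sites searched on the transcript strand were GCACTTT for the miR-17 family, GCACCTT for miR-18, TTTGCAC for miR-19 and GTGCAAT for miR-25/92. In a run of bases TTTGCAC can overlap the start of GCACTTT or GCACCTT by 4 letters. Over the 10773 genes with at least 20 counts and an annotated 3′ UTR, 15.5% held the miR-17 site, 10.5% the miR-18 site, 14.0% the miR-19 site and 7.96% the miR-25/92 site. Several of the members have short 3′ UTRs, of 58 bases in Tlr8, 74 in Ly96, 148 in Tlr2, 166 in Tlr1 and 233 in Cd14. The longer ones were those of Tlr13 (859 bases), Myd88 (987), Tlr6 (1111), Tlr4 (1321) and Ticam2 (3029). Among the 1431 genes with a 3′ UTR within 1.2-fold of the length of that of Ticam2, 58.1% held at least 1 of the sites. Among the 1479 genes with a 3′ UTR as long as that of Tlr4 to the same tolerance, 34.5% did. The deposited table lists 7891 bases for Tlr4 and 4701.27 for Tlr8, whereas their longest annotated transcripts have 4077 and 3431 bases, so sequence outside the windows was not searched.

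The set of receptors was much the same in both libraries. None of the 10 genes passed the size rule, which asks for a log2 ratio of TKO to WT of at least 1 in either direction, an interval that excludes 0 and at least 20 counts in 1 library. Over all 11525 genes with that many counts, 4.73% passed it. All 10 members passed the count minimum in both libraries. Their log2 ratios ran from -0.24 for Tlr4 to 0.38 for Myd88, with 5 above 0 and 5 below. The median was 0.053, against 0.0042 over all genes that reached the minimum, and the median size of the log2 ratio, regardless of sign, was 0.18 for the members and 0.21 for all genes. The intervals of 9 of the 10 lay wholly within 1.5-fold of no difference, and that of Ly96, the gene with the fewest counts, reached 1.55-fold.

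**Figure D1:**
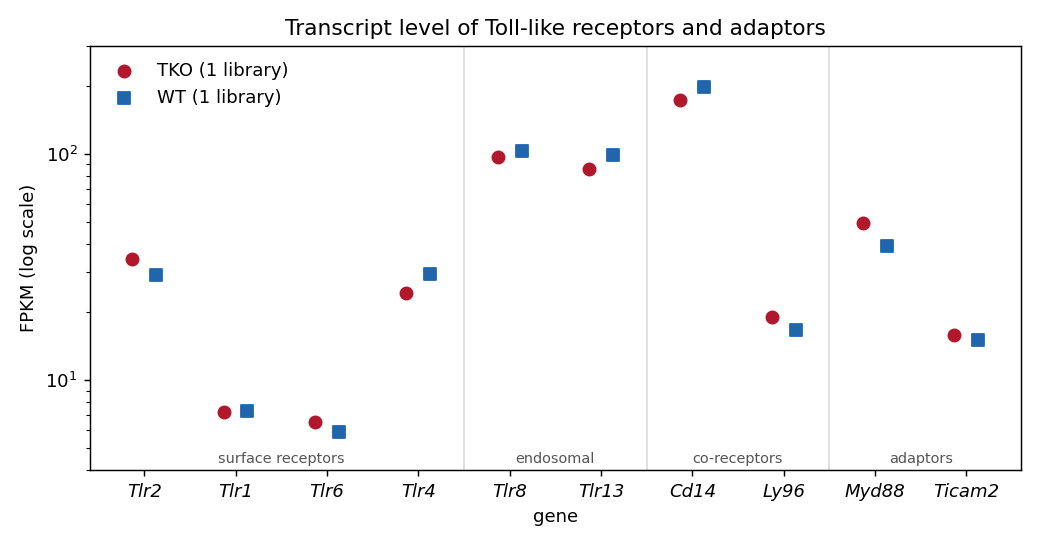
Level of each gene in FPKM (log scale) in the TKO library (red circles) and the WT library (blue squares), grouped by role. The levels span 6.54 FPKM (Tlr6) to 172.38 FPKM (Cd14) in TKO and 5.91 FPKM to 198.11 FPKM in WT, and the 2 libraries lie close together for every gene.

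The lipopeptide receptors were described first. Tlr2 (Entrez 24088, chromosome 3, 83836272 to 83841767 on GRCm38, minus strand), the shared partner of both lipopeptide receptor pairs, had 1060 counts and 34.44 FPKM in TKO, against 918 counts and 29.25 FPKM in WT. It was 1.21-fold higher in TKO (interval 1.11 to 1.32), a log2 ratio of 0.27 (0.14 to 0.40). Tlr1 (Entrez 21897), whose product joins TLR2 to bind triacylated lipopeptides, had 217.18 counts and 7.23 FPKM in TKO, against 229.58 counts and 7.33 FPKM in WT. Its log2 ratio of -0.018 had an interval on both sides of 0 (-0.29 to 0.26). Tlr6 (Entrez 21899), the partner for diacylated lipopeptides, had 181.82 counts and 6.54 FPKM in TKO and 167.42 counts and 5.91 FPKM in WT, with a log2 ratio of 0.19 (-0.12 to 0.50). Thus Tlr2 was the one lipopeptide receptor gene whose interval excluded 0.

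Counts of Tlr1 and Tlr6 cannot be fully separated. The genes are tandem copies on the minus strand of chromosome 5, Tlr1 at 64924679 to 64933563 and Tlr6 at 64952031 to 64960097, 18467 bases apart. Their annotated transcripts share an identical run of 229 bases in the coding part, and 7.89% of the 100-base windows of Tlr1 also occur in Tlr6. The end of that run is shown with the bases after it, with the base that differs in capitals. These windows lie at chr5:64925525-64925554 in Tlr1 and chr5:64953816-64953845 in Tlr6, on the minus strand of GRCm38, from the GENCODE M21 transcripts.
Tlr1: actacccagaaagctctaGgggaactgcac
Tlr6: actacccagaaagctctaAgggaactgcac

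The deposited counts of both genes are not whole, but their sum is, at 399 in TKO and 397 in WT. The sum does not depend on how reads were divided between the pair, and its log2 ratio was 0.073 (-0.13 to 0.28). Relative to Tlr2 within each library, the level of Tlr1 was 0.210 times that of Tlr2 in TKO and 0.251 times in WT, by FPKM. The log2 difference between the ratios of Tlr1 and Tlr2 was -0.29 (-0.60 to 0.013), an interval that includes 0, and for Tlr6 against Tlr2 it was -0.083 (-0.42 to 0.26).

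The LPS receptor genes did not all lie on the same side of 0. Tlr4 (Entrez 21898, chromosome 4, 66827584 to 66930284, plus strand), the signalling receptor for LPS, had 2075 counts and 24.35 FPKM in TKO, against 2558 counts and 29.45 FPKM in WT. It was 1.18-fold lower in TKO (1.11 to 1.25), a log2 ratio of -0.24 (-0.32 to -0.15) that was 0.084 once the dependence of the ratio on its listed gene length was removed. Cd14 (Entrez 12475, chromosome 18, 36725067 to 36726798, minus strand), which passes LPS to TLR4 and lipopeptides to TLR2, had 3075 counts and 172.38 FPKM in TKO, against 3603 counts and 198.11 FPKM in WT. It was 1.12-fold lower in TKO (1.07 to 1.18), a log2 ratio of -0.16 (-0.23 to -0.093).

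Ly96 (Entrez 17087, chromosome 1, 16688051 to 16709611, plus strand), the LPS-binding subunit MD-2, had 117 counts and 19.04 FPKM in TKO and 104 counts and 16.60 FPKM in WT. Its log2 ratio of 0.24 (-0.16 to 0.63) was not distinguishable from 0 at this depth. The FPKM level of Ly96 divided by that of Tlr4 was 0.782 in TKO and 0.564 in WT, and the log2 difference between the ratios of Ly96 and Tlr4 was 0.47 (0.069 to 0.88). With the dependence on listed gene length removed it was -0.10 (-0.51 to 0.30), on the other side of 0 and not distinguishable from it. That of Cd14 against Tlr4 was 0.073 (-0.036 to 0.18), and -0.37 (-0.48 to -0.26) with the dependence on length removed, so whether Cd14 was lower in TKO relative to Tlr4 depended on the length correction. That of Cd14 against Tlr2 was -0.44 (-0.58 to -0.29), and -0.54 (-0.69 to -0.39) with the dependence on length removed, below 0 beyond counting error either way. These differences within a library need no scaling between libraries.

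Both endosomal receptors were abundant and slightly lower in TKO, although Tlr8 was at 0.018 once the dependence of the ratio on its listed gene length was removed. Tlr8 (Entrez 170744, chromosome X, 167242696 to 167264329, minus strand), a receptor for single-stranded RNA, had 4883 counts and 96.50 FPKM in TKO, against 5516 counts and 102.81 FPKM in WT, a log2 ratio of -0.11 (-0.17 to -0.055). Tlr13 (Entrez 279572, chromosome X, 106143204 to 106160493, plus strand), a mouse receptor for bacterial ribosomal RNA, had 3693 counts and 85.60 FPKM in TKO, against 4332 counts and 98.48 FPKM in WT, a log2 ratio of -0.16 (-0.23 to -0.10). The log2 difference between the pair, Tlr13 against Tlr8, was -0.054 (-0.14 to 0.030). It was -0.11 (-0.20 to -0.029) with the dependence on listed length removed, where the interval excluded 0. That depended on the listed lengths. At the lengths of their longest annotated transcripts, chosen after the data were seen, Tlr13 was at -0.092 (-0.16 to -0.028) and Tlr8 at -0.081 (-0.14 to -0.025).

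Of the adaptors, Myd88 had the highest ratio of the 10 genes. Myd88 (Entrez 17874, chromosome 9, 119335934 to 119341411, minus strand) had 1025 counts and 49.46 FPKM in TKO, against 825 counts and 39.05 FPKM in WT. It was 1.30-fold higher in TKO (1.19 to 1.43), a log2 ratio of 0.38 (0.24 to 0.51), and 25.4% of all genes that reached the count minimum had a ratio at least as far from 0 in either direction. Acaa1a, a peroxisomal enzyme gene on the opposite strand, shares 290 of the 2576 exon bases of Myd88, and the sources used here do not say whether counting used strand. Acaa1a itself had a log2 ratio of 0.085 (-0.056 to 0.23).

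Ticam2 (Entrez 225471, chromosome 18, 46557291 to 46574533, minus strand) had 557 counts and 15.91 FPKM in TKO and 535 counts and 14.99 FPKM in WT, a log2 ratio of 0.12 (-0.050 to 0.30). It shares 838 of its 5792 exon bases with Tmed7, a cargo receptor gene on the same strand, which had a log2 ratio of -0.17 (-0.27 to -0.069), and the division of reads between them is uncertain. The log2 difference between Ticam2 and Myd88 was -0.26 (-0.48 to -0.034). It was -0.14 (-0.36 to 0.078) with the dependence on length removed, an interval that includes 0.

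**Figure D2:**
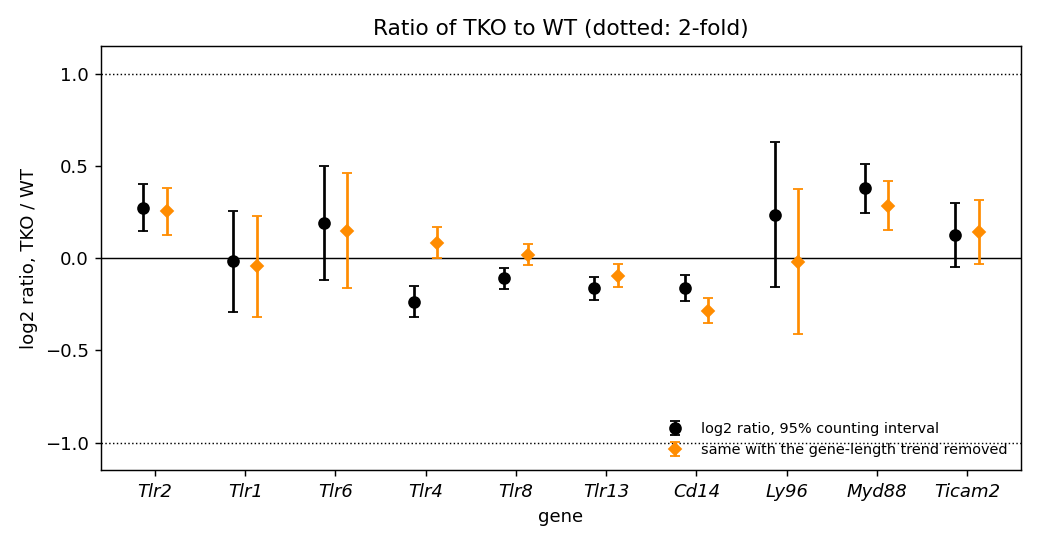
Log2 ratio of TKO to WT for each gene with its 95% counting interval (black circles), and the ratio left after subtracting its dependence on gene length (orange diamonds). All values lie between -0.28 and 0.38, far from the dotted lines at 2-fold.

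Intervals for counting error alone therefore excluded 0 for 6 genes. Tlr2 and Myd88 were on the higher side, and Tlr4, Cd14, Tlr8 and Tlr13 on the lower side. Of these, Tlr4 and Tlr8 were no longer below 0 with the listed gene length taken into account. Intervals excluded 0 in 44.6% of all genes past the count minimum (21.8% higher and 22.7% lower), and in 49.8% of the 9257 genes with at least 100 counts, which all members have. Read against these shares, 6 of 10 does not set the members apart, and the spread between cultures of 1 genotype, which these libraries do not measure, is not in these intervals. In the authors' deposited table the log2 ratios of FPKM ran from -0.27 (Tlr4) to 0.34 (Myd88).

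**Figure D3:**
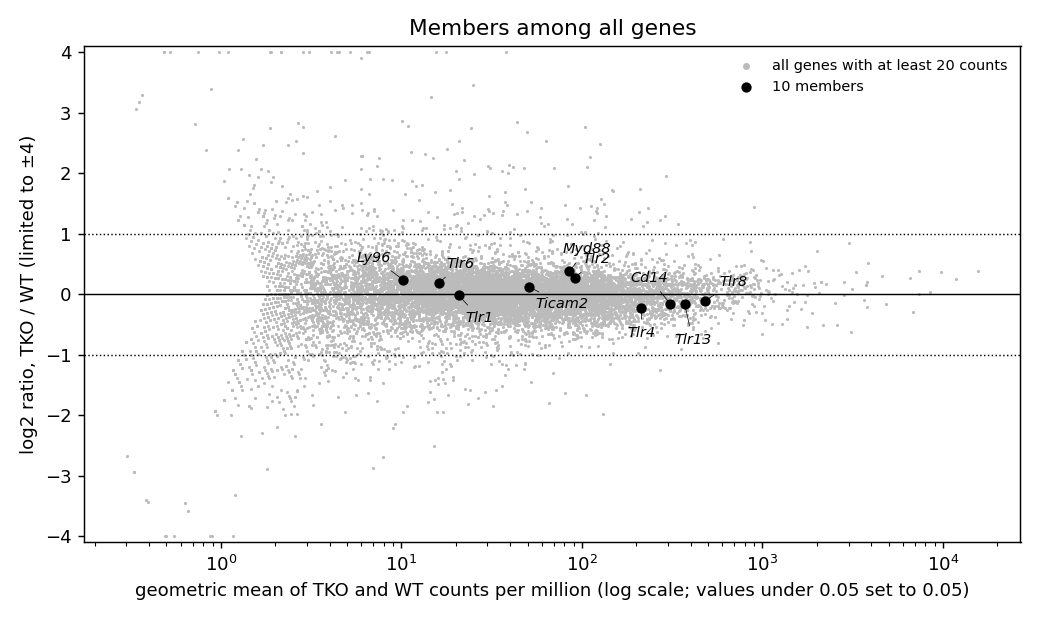
Log2 ratio against mean abundance for all 11525 genes with at least 20 counts (grey) and the 10 members (black). The members lie inside the dense band of genes, between -0.24 and 0.38, at every abundance.

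The order of levels, per length, was led by Cd14, Tlr8 and Tlr13 in both libraries. In TKO the order continued with Myd88, Tlr2, Tlr4, Ly96, Ticam2, Tlr1 and Tlr6, and in WT with Myd88, Tlr4, Tlr2, Ly96, Ticam2, Tlr1 and Tlr6. The exchanged neighbours, Tlr2 and Tlr4, differed within TKO by 0.49 on the log2 scale of counts per length (0.38 to 0.60), as Tlr2 minus Tlr4. Within WT they differed by 0.021 (-0.088 to 0.13) as Tlr4 minus Tlr2. Ly96 and Ticam2 could not be put in order in either library, nor Tlr1 and Tlr6 in TKO, since the interval of the difference included 0. The place of Tlr4 depends on its length. With its longest annotated transcript of 4077 bases in place of the 7891 bases in the table, its level would be 47.1 FPKM in TKO and 57.0 FPKM in WT. On the same basis that is above Myd88, at 39.2 in TKO and 30.9 in WT, and Tlr2, at 32.8 in TKO and 27.9 in WT.

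The ratio of TKO to WT varied with gene length across the whole table, and several members followed that trend. At the listed length of Ly96, 603 bases, the trend stood at a log2 ratio of 0.25, and at that of Tlr4, 7891 bases, at -0.32. The 242 genes within 1.2-fold of the length of Ly96 had a median of 0.25, and the 675 genes of a length like Tlr4 a median of -0.30. With the trend removed, Ly96 was at -0.019 (-0.41 to 0.38), Tlr4 at 0.084 (-0.00044 to 0.17) and Tlr8 at 0.018 (-0.038 to 0.074), so that all 3 changed sign and no interval excluded 0.

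Myd88 at 0.28 (0.15 to 0.42), Tlr2 at 0.25 (0.12 to 0.38), Tlr13 at -0.095 (-0.16 to -0.032) and Cd14 at -0.28 (-0.35 to -0.21) kept their side of 0 without the trend. Cd14 was then further from 0, since genes of its length had a median of 0.12. The value of Tlr4 rests on its listed length. At its annotated length, an alternative chosen after the data were seen, Tlr4 was at -0.16 (-0.25 to -0.078) and Tlr8 at -0.081 (-0.14 to -0.025). Ticam2 was at 0.21 (0.034 to 0.38) at its annotated length of 4204 bases, where its interval excluded 0, against 3264 bases in the table. Differences of this size for Tlr4, Tlr8 and Ticam2 therefore depended on which length was used.

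**Figure D4:**
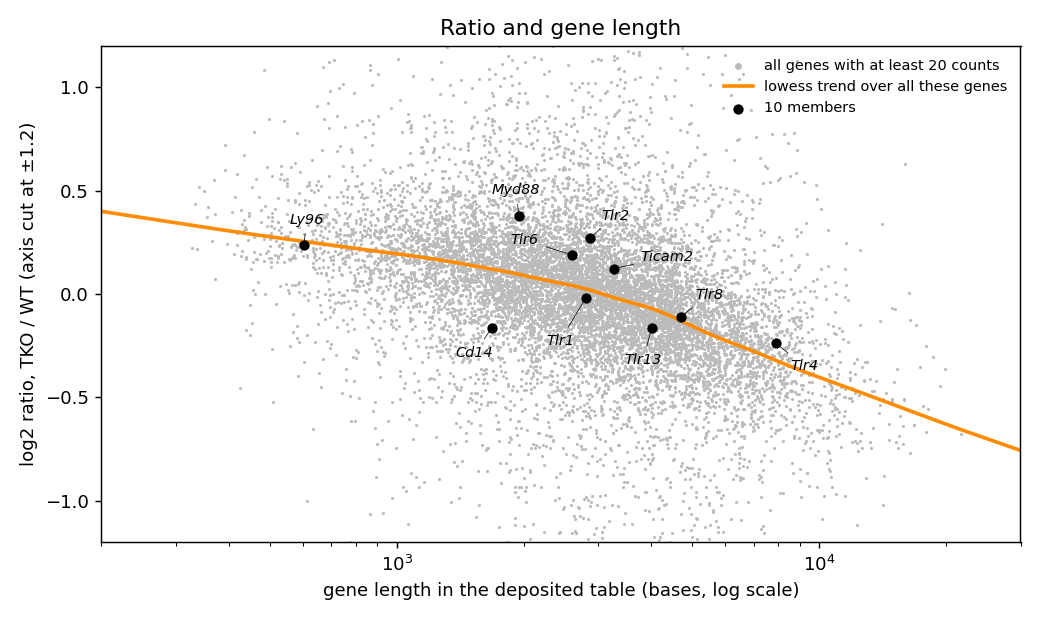
Log2 ratio against gene length (log scale) for all genes with at least 20 counts (grey), with the lowess trend over them (orange) and the 10 members (black). Ly96, at 603 bases, and Tlr8 lie on the trend, Tlr4 lies close to it, and Myd88 and Cd14 lie away from it, on opposite sides.

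Other genes of the Toll-like receptor pathway were taken from 6 lists, chosen with earlier results of these data known. Of 54 genes past the count minimum, 2 were higher by the size rule and 0 lower, against 2.43% and 2.30% of all genes. Irf7, a transcription factor for interferon genes that is itself induced by interferon, had 2556 counts in TKO and 557 in WT, a log2 ratio of 2.26 (2.13 to 2.40). Socs1, an inhibitor of cytokine signalling, had 28 counts in TKO and 12 in WT, a log2 ratio of 1.29 (0.27 to 2.40). No other gene past the count minimum reached 2-fold. Under the minimum, Lbp, which encodes the LPS-binding protein of serum, had 17 counts in TKO and 7 in WT, a log2 ratio of 1.35 (0.0023 to 2.86), and Scimp had 2 counts in TKO and 1 in WT.

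Among the other receptor genes Tlr7, a receptor for single-stranded RNA and the most abundant of them, had 63.91 FPKM in TKO and 74.02 FPKM in WT. Its log2 ratio was -0.17 (-0.25 to -0.098), and -0.12 (-0.19 to -0.043) with the length trend removed. Tlr3, the receptor for double-stranded RNA, had 409 counts in TKO and 283 in WT, a log2 ratio of 0.60 (0.37 to 0.82). Tlr9, which binds unmethylated CpG DNA, was at -0.32 (-0.53 to -0.11). Tlr5, the flagellin receptor, had 13 counts in TKO and 20 in WT, and Tlr11 and Tlr12 had 0 in TKO and 1 in WT, so no difference could be measured for these 3.

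Genes for folding and transport of the receptors had 8 of 8 past the count minimum and a median of 0.040. Hsp90b1, the chaperone gp96 and the most abundant, was at 0.28 (0.24 to 0.32), its cofactor Cnpy3 at 0.31 (0.20 to 0.43) and Unc93b1, which escorts endosomal receptors, at 0.29 (0.24 to 0.34). Tmed7 was at -0.17, as given above, and with the length trend removed Hsp90b1, Cnpy3 and Unc93b1 were at 0.25, 0.21 and 0.22.

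The accessory proteins had a median of -0.17 over 7 genes. Cd36, a scavenger receptor that assists TLR2 with its TLR6 pair, had the largest difference, with 2735 counts in TKO and 5366 in WT, a log2 ratio of -0.91 (-0.97 to -0.84). Itgam and Itgb2, the chains of the integrin CR3, were at -0.31 (-0.35 to -0.26) and 0.27 (0.23 to 0.31). Cd180 and Ly86, which form a complex related to TLR4 with MD-2, were likewise on opposite sides, at 0.25 (0.17 to 0.32) and -0.17 (-0.29 to -0.048).

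The MyD88 arm of signalling had a median of -0.094 over 15 genes, of which 2 lay above 0 and 5 below 0 beyond counting error, beside 21.8% above and 22.7% below of all genes past the count minimum. These counts do not set the list apart from all genes, and with the length trend removed they were 3 above and 4 below. The lower ones included Peli2, a ubiquitin ligase acting on IRAK proteins, at -0.40 (-0.55 to -0.25), Tab3 at -0.37 (-0.65 to -0.089), Traf6, the ubiquitin ligase downstream of MYD88, at -0.32 (-0.48 to -0.15) and Pik3ap1 at -0.31 (-0.39 to -0.24). Irf5, the most abundant gene of the arm, was at -0.053 (-0.12 to 0.017). With the length trend removed Peli2, Tab3 and Traf6, all with long transcripts, were at -0.18, -0.12 and -0.089, and the intervals of Tab3 (-0.41 to 0.16) and Traf6 (-0.26 to 0.078) then included 0.

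The TRIF arm had a median of 0.11 over 8 genes. Besides Irf7, Irf3 was at 0.36 (0.16 to 0.55) and the kinase gene Ikbke at 0.35 (0.16 to 0.54), while Traf3 was at -0.20 (-0.42 to 0.021). With the length trend removed Irf3 was at 0.27, Ikbke at 0.36 and Traf3 at 0.083 (-0.14 to 0.30), so that Traf3 changed sign. Negative regulators had a median of 0.11 over 12 genes, which was 0.016 with at least 100 counts and 0.017 with no count minimum. Trim30a, which is induced by interferon and restrains the TAB proteins, had 2390 counts in TKO and 1378 in WT, a log2 ratio of 0.86 (0.76 to 0.96), and the phosphatase gene Ptpn6, the most abundant, was at 0.26 (0.19 to 0.32). Rnf216, a ubiquitin ligase that marks Toll-like receptors for degradation, and Tnfaip3, which encodes the ubiquitin-editing enzyme A20, were at -0.32 (-0.46 to -0.19) and -0.32 (-0.65 to 0.010).

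**Figure D5:**
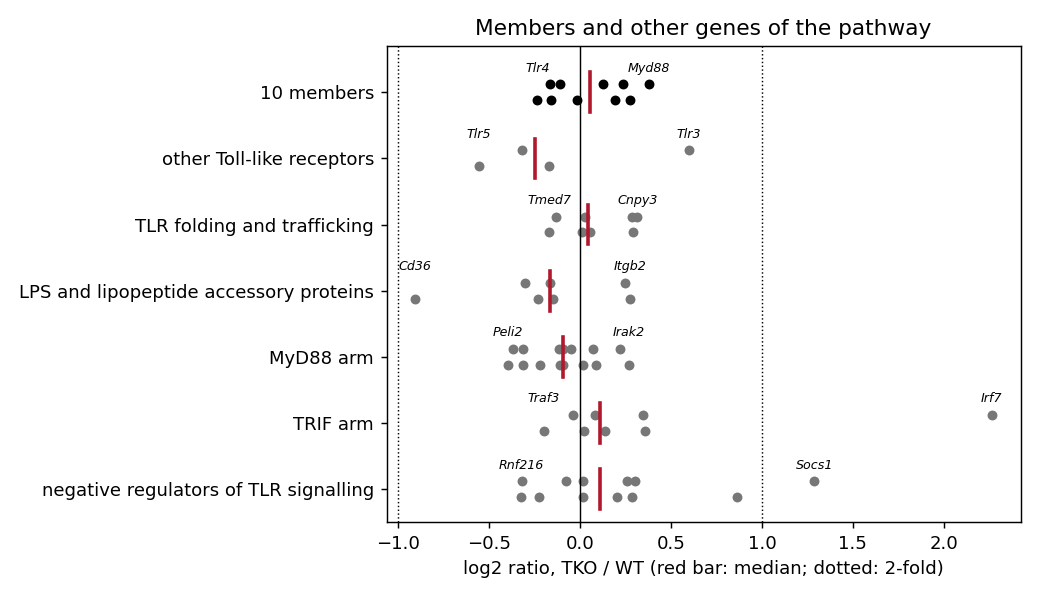
Log2 ratio of TKO to WT for each gene with at least 20 counts in the 10 members and 6 lists of the same pathway, with the median of each list as a red bar and the lowest and highest gene named. Only Irf7 (2.26) and Socs1 (1.29) lie past the dotted 2-fold lines.

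Markers of the culture were compared because its makeup bears on every level above, and in bulk RNA fewer cells of a type and less RNA per cell cannot be told apart. Macrophage markers had a summed level of 3793 FPKM in TKO and 3545 FPKM in WT, most of it from Cd68, Mpeg1 and Csf1r. Cd163 was low, at 2.67 FPKM in TKO and 2.43 FPKM in WT, and Marco had 2 counts in TKO and 7 in WT. Of 10 listed genes 9 reached the count minimum and none of these passed the size rule. Their log2 ratios ran from -0.43 (-0.47 to -0.39) for Adgre1 to 0.68 (0.60 to 0.77) for Fcgr1. Intervals lay above 0 in 3 of the 9 and below 0 in 4, beside 21.8% and 22.7% of all genes past the minimum. Dendritic cell markers summed to 43.8 FPKM in TKO and 18.2 FPKM in WT, with 4 of the 5 genes past the minimum higher by the size rule, of 9 listed. Of all genes past the minimum, 2.43% were higher and 2.30% lower by this rule. Most of both dendritic cell sums came from Itgax (19.49 FPKM in TKO and 7.75 FPKM in WT) and Cd24a (21.34 and 8.95 FPKM). Flt3 (27 counts in TKO and 10 in WT) and Dpp4 (22 and 8) lay close to the minimum. Under it, Clec9a (4 and 1), Ccr7 (14 and 5) and Siglech (6 and 4) had more counts in TKO, and Zbtb46 (3 and 5) had fewer. Fibroblast and stroma markers summed to 28.7 FPKM in TKO and 97.3 FPKM in WT, with 6 of 9 lower, of 10 listed. Monocyte markers summed to 55.4 FPKM in TKO and 52.7 FPKM in WT (1 of 5 higher), and neutrophil markers to 32.5 FPKM in TKO and 26.4 FPKM in WT (1 of 2 higher, of 8 listed). Most of the neutrophil sums came from Csf3r (23.82 FPKM in TKO and 21.63 FPKM in WT). The higher neutrophil marker, S100a8, lay close to the minimum, with 21 counts in TKO and 9 in WT. With the length trend removed, its interval included 0 (-0.21 to 2.29). B cell markers summed to 1.88 FPKM in TKO and 2.61 FPKM in WT (1 of 2 lower, Ebf1, with 8 counts in TKO and 21 in WT). With the length trend removed, the interval of Ebf1 included 0 (-2.54 to 0.076). Markers of T and NK cells summed to 2.70 FPKM in TKO and 3.29 FPKM in WT (1 of 1 lower, Cd4, with 25 counts in TKO and 64 in WT). Under the minimum, Cd3d had more counts in TKO (19 and 10), Cd8a the same (16 and 16) and Klrb1c fewer (4 and 6). The markers of this list thus did not share a direction. Of single markers, Elane and Ms4a1 were at 0 counts in WT and at 3 each in TKO. Retnlg, Camp and Pax5 were at 0 counts in TKO and at 2, 1 and 1 in WT. No difference could be measured from so few counts. The part of these cells in the small differences among the 10 genes was not tested. Mir17hg, the host transcript of mir-17~92, had 42 counts in TKO and 8 in WT, and since mature microRNAs were not measured this does not check the genotype labels.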

How the data were processed

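For each gene and library the deposited table gives an expected count of reads (further than 1e-06 from a whole number in 21.1% of genes in TKO and 21.3% in WT) and an FPKM value, scaled by the authors for gene length and depth per the file headers; genes at 0 counts are listed at 0.01 FPKM. The submitters' processing notes name HISAT2 2.0.4 and Bowtie2 2.2.5, RSEM 1.2.12 and the mm10 build, without roles. Annotation, filters and strand setting: not given in the sources used here. Their log2 ratio is, in the deposited table, that of the authors' FPKM values. The authors' p-value, from an unstated test, was not used, and neither was the authors' FDR, a score here since 713 values exceed 1. Unmatched columns of per-sample values numbered 0.

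Expected counts were rounded and scaled with TMM factors (0.988 for TKO and 1.01 for WT) of edgeR 4.0.16 in R 4.3.3. Intervals are exact conditional binomial (Clopper-Pearson) at 95%. Since reads carried no molecular identifiers and are not independent molecules, intervals cover counting error only. A count of 0 was replaced by 3. No test was possible with 1 library per genotype. The length trend was a lowess fit (span 0.3) over all genes past the count minimum. Differences between genes within a library have exact conditional odds ratio intervals. GENCODE M21, on the GRCm38 assembly that mm10 names, gave positions and 3′ UTRs, and all 10 members matched by symbol. Alternatives were library totals, DESeq2 1.42.0 size factors, FPKM with 1 or 0.1 added, other count minimums, thresholds and intervals, and removal of the length trend.

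The members, lists and rules were chosen with earlier results of these data known. Named were all members and, in each pathway list, up to 4 genes with the largest ratio and the most abundant gene. Ly86, Tlr11, Tlr12, Lbp, Scimp, Acaa1a, Mir17hg and the single markers of cell types were named after their values were seen. Some markers of other cell types are not reported here and are left out of the sums.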

Additional observations from a re-analysis of the deposited data

How the results depend on the processing

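No member passed the size rule under any of the 9 alternatives planned, and the members' median stayed between 0.017 and 0.053 under them. At annotated lengths, a setting that was not planned, the median was -0.015. Scaling by library totals or by DESeq2 size factors, FPKM, count minimums, thresholds and a 99% interval left the sign of all 10 ratios as it was. Removing the length trend, with the lengths in the table, lowered the number of members below 0 beyond counting error to 2 in place of 4, and Tlr4, Tlr8 and Ly96 changed sign. Among the pathway lists, the genes higher by the size rule numbered 1 with at least 100 counts, 1 with a 99% interval, 1 with log2 of FPKM plus 1 and 4 at a 1.5-fold threshold, where 1 was lower, in place of 2 higher and 0 lower. With no count minimum they numbered 3, with Lbp added. Socs1, with 28 counts in TKO and 12 in WT, lies under the minimum of 100 by construction. Over all genes, 164 were higher and 95 lower with at least 100 counts, 591 and 638 at 1.5-fold, and 122 lower with log2 of FPKM plus 1, where no interval is used, in place of 280 higher and 265 lower. The 8mer form of the sites also gave 0 members. At annotated lengths 3 members were above 0 beyond counting error, with Ticam2 added, and 4 below, a setting chosen after seeing the data. In it only the lengths of the members were changed, while the trend stayed as fitted to listed lengths. No share of all genes is given for either way of removing the length trend, so these counts of members have none to be read against. No paired analysis was possible because each genotype has 1 library. For the same reason no library could be left out. Ly96, with 117 counts in TKO and 104 in WT, is the gene that depth limits most.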
